A study of Mus musculus with 12 samples.

Results

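In mouse CD11c cells taken from inguinal lymph nodes, 115 of 21872 protein-coding genes (0.526%) were higher when the node drained a tumor and lower when the tumor-bearing mouse was given a CD40 agonist. The members were chosen by these same measured values. A gene belonged when log2(CPM + 1), with CPM the counts scaled to a common library total, was higher in the tumor-draining than in the healthy library of the same title prefix in 4 of 4 prefixes with a mean difference of at least 0.4, and lower in the agonist than in the tumor-draining library in 4 of 4 prefixes with a mean difference of -0.4 or below. The largest sets by known function were 21 genes of mitosis and chromosome replication and 16 genes of granulocytes and inflammation. A further 12 were genes of paired immunoreceptors, C-type lectins and myeloid signalling. A pair of genes of oxysterol guidance, Cyp7b1 and Gpr183, also belonged. The sets were assigned from gene function after the members were known, and serve only to order the description.

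CD11c, the integrin chain encoded by Itgax, marks dendritic cells, which carry antigen to lymph nodes and present it to T cells, and some macrophages and other leukocytes share it. CD40 is the receptor through which helper T cells license dendritic cells, and agonist antibodies against it bring such cells to maturation, a state of high migration and costimulation in which division and antigen uptake usually slow. Tumor-draining nodes also receive myeloid cells and soluble factors from the tumor site, so genes of granulocytes and of inflammation are often followed there.

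The labels gave 4 libraries of healthy nodes, 4 of nodes draining a subcutaneous KPC tumor and 4 of such nodes after the agonist as well. KPC tumors model pancreatic carcinoma. The sources used here give no mouse strain, age or sex, no dose, clone or schedule of the agonist, no control injection, no method of isolating the CD11c cells, and no word on whether the libraries came from separate animals. P-values thus measure the spread among these samples only, and that spread may be technical. Within each group the 4 libraries are called replicates 1 to 4 in the order of their title prefix, and libraries of different groups with the same number share a prefix.

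Estimated counts totalled 32626784 to 56320661 per library. Dendritic cell genes were high in every library: Itgax ranged from 664 to 1075 CPM, Flt3, a growth factor receptor of dendritic cells, from 336 to 791 CPM, the transcription factor Zbtb46 from 137 to 210 CPM and the antigen-presenting chain H2-Ab1 from 3476 to 7489 CPM. The summed level of 11 dendritic cell identity genes was 8280 to 10888 CPM in healthy, 8481 to 10582 CPM in tumor-draining and 5881 to 6983 CPM in agonist libraries, so that the agonist libraries lay below all others. The abundant H2-Ab1, 1 of the 11, weighs heavily in this sum, at 5193 to 7098 CPM in tumor-draining and 3476 to 4223 CPM in agonist libraries. Zbtb46 overlapped between these groups (158 to 194 and 137 to 170 CPM), and Cd40 was higher with agonist in 4 of 4 prefixes. With the title prefix as a block in edgeR, 7 of the 11 fell with agonist and 2 rose (1 and 0 without it). Because each library was a bulk sample, fewer cells of a type and less RNA per cell cannot be told apart for any gene below. Mitochondrial genes took 1.22% to 4.74% of the counts. The nuclear RNA Malat1 stood at 23954, 24624, 7666 and 8352 CPM in healthy, 16827, 12471, 4169 and 6035 CPM in tumor-draining and 24373, 20919, 7036 and 11488 CPM in agonist replicates 1 to 4. Within each prefix it was lowest in the tumor-draining library, the reverse of the order that the rule asked of the members, and it was lower in prefixes 3 and 4 than in prefixes 1 and 2. Whether cell make-up or RNA quality had a part in the differences of any set below was not tested.

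Both differences of the rule use the same 4 tumor-draining libraries with opposite signs. A tumor-draining value that was high for any reason, sampling error included, raised the first difference and lowered the second, so the choice favours such values, the sizes given below are biased away from 0, and the members carry no test in either comparison. The tumor condition alone was met by 599 genes and the agonist condition alone by 967. The same rule with both signs reversed chose 106 genes. Member differences with tumor ran from 0.42 to 2.89 with a median of 0.67, and those with agonist from -2.93 to -0.40 with a median of -0.60, on the log2(CPM + 1) scale, which understates the change of low genes. Of the 115 members, 109 had a mean of at least 1 CPM and 72 of at least 10 CPM.

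The plot of both mean differences shows that most members crowded the corner set by the thresholds. The members just inside the tumor threshold were Kif15 (0.42), Nuf2 (0.42) and Trabd2b (0.42), and those just inside the agonist threshold were Dscam, Ppp1r3d and Prc1, each at -0.40. Just outside the tumor threshold lay Tmem231, Zfp52 (each 0.40 after rounding) and Zbed4 (0.39), and just outside the agonist threshold Ckap2l, Tspan13 (each -0.40 after rounding) and Ikzf1 (-0.39). Ckap2l is itself a mitotic spindle gene, and Kif15, Nuf2 and Prc1 belong to the same process.

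**Figure D1:**
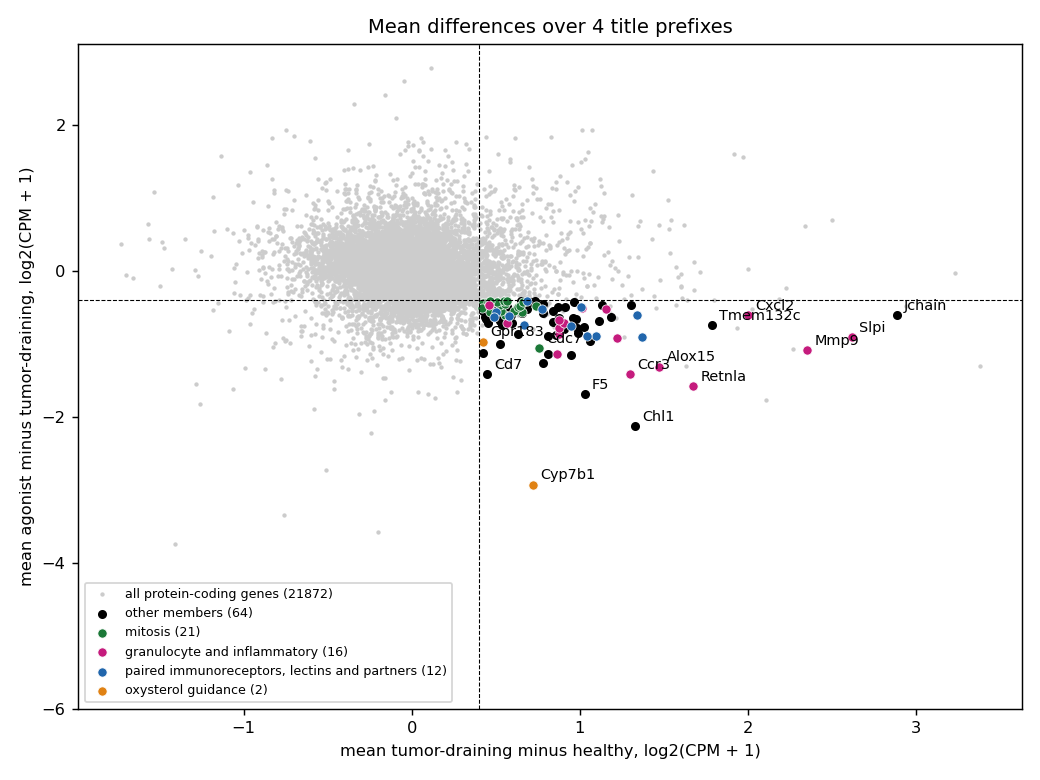
Each point is a protein-coding gene; the horizontal axis is the mean tumor-draining minus healthy difference and the vertical axis the mean agonist minus tumor-draining difference over 4 title prefixes, both in log2(CPM + 1), with the 115 members coloured by set and the thresholds as dashed lines. Among the members Cyp7b1 lies lowest at 0.72 and -2.93, Jchain farthest right at 2.89 and -0.61, and grey points inside the corner did not have both signs in all 4 prefixes.

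In edgeR's quasi-likelihood test over 23729 genes, 6 of the 115 members had an adjusted p under 0.05 as higher with tumor, where 0.181% of all genes did (0.0169% were lower), and 9 as lower with agonist, where 0.83% did (1.85% were higher). With the title prefix as a block these counts were 101, against 4.02% of all genes, and 76, against 6.58% (6.74% were higher). The 4 tumor-draining values lay above all 4 healthy values in 61 members (2.68% of 19346 genes above 0), the 4 agonist values lay below all 4 tumor-draining values in 49 (5.27%), and both held in 35 (0.362%). These shares follow from the choice of members, and nothing is read from them. Other genes named below as rising or falling passed this test without the block, which ignores the pairing of libraries by prefix, unless the block is named. Where a gene list is counted below without its members, genes chosen for a rise with tumor and a fall with agonist were taken out. The counts of such a list therefore lean the other way. Without healthy replicate 1, 3 or 4, 0 of all genes passed with tumor in edgeR (1301, 2251 and 2063 at an unadjusted p under 0.05), so no rise with tumor named below passed there without the block.

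The rule was also asked of 3 prefixes at a time and the chosen genes were looked up in the prefix left out, the only libraries of these comparisons that such a choice did not use. Chosen without prefix 1, 138 genes included 132 (95.7%) that were higher with tumor and 117 (84.8%) that were lower with agonist in prefix 1, where 44.2% and 46.6% of all genes above 0 were. Without prefix 2 the counts were 124 (97.6%) and 115 (90.6%) of 127, against 46.4% and 55.7% of all genes, and without prefix 3 they were 103 and 103 of 107 (96.3% each), against 48.6% and 51.1%. Without prefix 4, 177 genes were chosen, of which 146 (82.5%) were higher with tumor and 152 (85.9%) lower with agonist in prefix 4, against 41.9% and 43.0% of all genes. Their median tumor difference in prefix 4 was 0.26, where the held-out medians were 0.70 to 0.74 in the other 3 prefixes. Both signs held in 84.1%, 89.0%, 94.4% and 72.3% of the chosen genes in prefixes 1 to 4, against 25.5%, 33.6%, 33.2% and 24.4% of all genes. Each held-out pair of differences again shares 1 tumor-draining library. The genes of a prefix are all read in the same 3 libraries, so they are not independent of each other. All genes here are those above 0 in at least 1 library, and ties at 0 count as neither sign.

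Tumor-draining replicate 3 was the highest of the 12 libraries for 94 of the 115 members, replicate 1 for 10, replicate 2 for 8 and replicate 4 for 3. The rule itself makes a tumor-draining library the highest for each member. The share of all genes highest in each library was not counted. Replicate 4 was the lowest tumor-draining library for 52 members, replicate 1 for 48, replicate 2 for 14 and replicate 3 for 1. Replicate 3 was also the library with the largest total and the lowest Malat1 level, and any link between these was not tested. Without prefix 3 the rule gave 107 genes, 89 of them among the 115, and without prefix 4 it gave 177, 102 of them among the 115.

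The 16 genes of granulocytes and inflammation had the largest median differences among the sets of more than 10 genes, 1.09 with tumor and -0.82 with agonist. Their summed level was 88.3 to 107 CPM in healthy, 131 to 444 CPM in tumor-draining and 82.6 to 156 CPM in agonist libraries, so that the spread between tumor-draining libraries exceeded that within either other group. In 13 of the 16 the mean agonist level was above the mean healthy level on the rule scale, and in 8 the difference between agonist and healthy was within 0.2. The opposite signs that the rule asks for favour such small differences. Median deviations of 4 sets from their means over the 12 libraries are plotted by library.

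**Figure D2:**
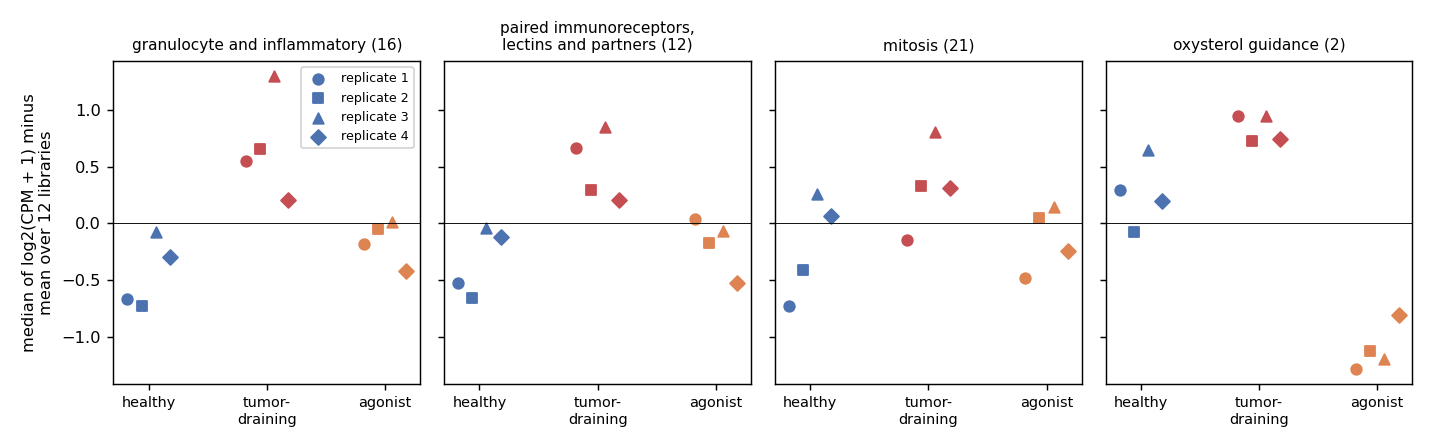
Each point is 1 library; the vertical axis is the median, over the genes of a set, of log2(CPM + 1) minus the gene's mean over the 12 libraries, and the marker gives the replicate. The granulocyte and inflammatory set reaches 1.30 in tumor-draining replicate 3 and 0.21 in replicate 4, the mitosis set differs by prefix within every group, and the oxysterol pair lies lowest in the agonist libraries.

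Retnla (resistin-like molecule alpha; chr16:48842551-48844461, plus strand) encodes a secreted protein that interleukin-4 and interleukin-13 induce in macrophages. It stood at 7.77, 1.93, 5.37 and 7.14 CPM in healthy replicates 1 to 4, at 34.8, 11.7, 33.0 and 7.98 CPM in tumor-draining and at 14.2, 5.80, 4.40 and 2.19 CPM in agonist replicates. Tumor-draining replicates 1 and 3 were high, whereas replicate 4 barely exceeded the highest healthy library, and agonist replicate 1 lay above tumor-draining replicates 2 and 4. The mean differences were 1.68 ± 1.04 (SD, n = 4 prefixes) with tumor and -1.57 ± 0.76 with agonist. Alox15 (chr11:70344152-70352031, minus strand) encodes an arachidonate lipoxygenase of eosinophils and alternatively activated macrophages. It stood at 2.96, 2.51, 10.04 and 5.80 CPM in healthy, 9.47, 12.2, 27.8 and 14.7 CPM in tumor-draining and 1.64, 8.05, 8.93 and 5.94 CPM in agonist replicates. The healthy and tumor-draining ranges overlapped through replicate 3 of the healthy group and replicate 1 of the tumor-draining group, while no agonist library reached a tumor-draining one. Its differences were 1.47 ± 0.30 and -1.31 ± 0.61.

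Ccr3 (chr9:124021972-124031689, plus strand), the eotaxin receptor that guides eosinophils, stood at 1.92, 2.67, 7.39 and 3.85 CPM in healthy, 7.25, 10.1, 19.7 and 7.50 CPM in tumor-draining and 0.361, 5.98, 5.61 and 4.07 CPM in agonist replicates. Every agonist library lay below every tumor-draining one, healthy replicate 3 reached just into the tumor-draining range, and the differences were 1.30 ± 0.35 and -1.41 ± 0.91. Siglecf (chr7:43351341-43359531, plus strand), a sialic acid-binding lectin of eosinophils, stood at 1.70, 2.39, 4.50 and 3.91 CPM in healthy, 7.93, 7.60, 12.6 and 5.995 CPM in tumor-draining and 5.78, 4.37, 2.997 and 2.95 CPM in agonist replicates. Its 4 tumor-draining values lay above both other groups, with differences of 1.22 ± 0.51 and -0.92 ± 0.59. With the counts of a group's libraries pooled, the transcript Siglecf-201 carried 61.3% in healthy, 59.1% in tumor-draining and 23.4% in agonist libraries. The pooled isoform make-up assigned by the quantifier thus also differed. By itself this transcript met each sign of the rule in 3 of 4 prefixes. Gata1, a transcription factor of erythroid cells, eosinophils and mast cells, averaged 0.360, 0.913 and 0.367 CPM. Cebpe, a transcription factor of granulocyte maturation, averaged 0.467, 1.65 and 0.684 CPM, with no overlap of its tumor-draining values with either other group. Gata1 and Cebpe were chosen for mention after their values were seen.

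Of the 15 genes of the eosinophil, basophil and mast cell list that were not members, 10 could be tested, of which 1 rose with tumor and 1 fell with agonist (2 and 3 with the block). Their median log2 fold changes were 0.06 with tumor and -0.23 with agonist. Prg2, the major basic protein of eosinophil granules, rose from 0.295 ± 0.0597 CPM in healthy to 3.35 ± 1.59 CPM in tumor-draining libraries (log2 change of 3.55 with SE 0.45, adjusted p = 0.0181, edgeR, 3.65e-04 with the block), and stood at 3.74 ± 1.75 CPM with agonist (log2 change of 0.19 with SE 0.39, adjusted p = 0.941). Cd200r3, a receptor of basophils and mast cells, fell with agonist from 1.60 ± 0.545 to 0.505 ± 0.119 CPM (log2 change of -1.64 with SE 0.30, adjusted p = 0.00890). Eosinophil peroxidase Epx averaged at most 0.0277 CPM in any group, the basophil protease Mcpt8 0.215 CPM, the high-affinity IgE receptor chain Fcer1a 0.142 CPM, and Prss34 was listed at 0 in all healthy and tumor-draining libraries. The summed level of the 15 genes was 256 to 360 CPM in healthy, 324 to 424 CPM in tumor-draining and 211 to 330 CPM in agonist libraries. Kit (209.6 CPM in tumor-draining libraries) and Il6ra (139.3 CPM), which other leukocytes also express, made up most of it. The part of such cells in the values of Ccr3, Siglecf and Alox15 was not tested.

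Mmp9 (chr2:164940780-164955850, plus strand), a gelatinase stored in neutrophil granules, stood at 1.52, 2.33, 3.49 and 1.77 CPM in healthy, 16.6, 12.03, 51.9 and 4.88 CPM in tumor-draining and 10.9, 5.05, 10.4 and 3.30 CPM in agonist replicates. Tumor-draining replicate 3 was far above the rest, and the agonist values overlapped the tumor-draining ones. Its differences were 2.35 ± 1.07 and -1.08 ± 0.81, and the agonist mean was 1.27 ± 0.71 above the healthy mean on the rule scale. Slpi, an inhibitor of neutrophil serine proteases, stood at 0.692, 2.51, 2.19 and 2.16 CPM in healthy, 12.9, 12.1, 39.9 and 10.5 CPM in tumor-draining and 4.26, 6.45, 15.7 and 9.70 CPM in agonist replicates. All agonist values lay above all healthy ones, and the differences were 2.62 ± 0.90 and -0.90 ± 0.59.

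Il1b (chr2:129364570-129371139, minus strand), the inflammatory cytokine interleukin-1 beta, stood at 70.0, 63.9, 59.9 and 60.6 CPM in healthy, 113, 141, 195 and 61.4 CPM in tumor-draining and 91.8, 70.9, 60.7 and 43.1 CPM in agonist replicates. Tumor-draining replicate 4 was at the healthy level, and the other 3 were above every healthy library. The differences of Il1b were 0.88 ± 0.71 and -0.86 ± 0.61, and its agonist mean differed from the healthy mean by 0.02 ± 0.37. Cxcl2, a chemokine that draws neutrophils through Cxcr2, stood at 3.34, 2.49, 1.19 and 1.34 CPM in healthy, 14.1, 17.7, 22.6 and 1.996 CPM in tumor-draining and 13.7, 9.08, 8.11 and 1.79 CPM in agonist replicates. As for Il1b, tumor-draining replicate 4 lay within the healthy range. Hdc, the enzyme that makes histamine, averaged 1.99 ± 0.567, 6.07 ± 2.59 and 3.87 ± 1.98 CPM, Serpinb2, an inhibitor of plasminogen activators, 1.02 ± 0.421, 2.77 ± 1.29 and 0.741 ± 0.683 CPM, and Nlrp12, a cytosolic sensor protein of myeloid cells, 1.26 ± 0.587, 3.22 ± 1.51 and 1.36 ± 0.154 CPM in healthy, tumor-draining and agonist libraries (SD, n = 4).

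Of the 14 neutrophil genes that were not members, 11 could be tested, and 2 rose with tumor. The granulocyte colony-stimulating factor receptor Csf3r rose from 14.8 ± 1.83 to 31.8 ± 8.92 CPM (log2 change of 1.18 with SE 0.20, adjusted p = 0.0426, edgeR), and the itaconate-producing enzyme Acod1 rose from 1.09 ± 0.492 to 7.35 ± 3.74 CPM (log2 change of 2.87 with SE 0.45, adjusted p = 0.0344). With agonist 0 of the 11 fell in edgeR, with or without the block, 0 at an unadjusted p under 0.05 and 0 in DESeq2, and Acod1 rose further to 24.4 ± 10.6 CPM (log2 change of 1.75 with SE 0.41, adjusted p = 0.0389). With the block 6 rose with tumor and 2 rose with agonist. Their median log2 fold change was 2.05 with tumor and 0.02 with agonist, where the medians over all genes tested were -0.02 and 0.02. The calprotectin genes S100a8 and S100a9 averaged 4.47 and 10.6 CPM with tumor and 6.27 and 11.1 CPM with agonist. The summed level of the 14 genes was 29.8 to 47.2 CPM in healthy, 49.7 to 153 CPM in tumor-draining and 78.4 to 208 CPM in agonist libraries. The granule gene Elane was listed at 0 in all tumor-draining and agonist libraries, and Ly6g and Camp averaged at most 0.0354 and 0.0548 CPM in a group. Mmp9, Il1b, G0s2 and Hdc were the 4 members on the same list. Removing them took out genes chosen for low agonist values, so the 11 lean away from a fall with agonist. Of the cell type, only these marker levels were measured, and its part in the values of the 16 members was not tested.

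The other cytokine genes around Il1b moved in several directions. Of the 27 others on the interleukin-1 and interleukin-6 list, 3 rose with tumor (with the block 6 rose and 1 fell), and none of the 3 passed the test with agonist. The interleukin-1 receptor antagonist Il1rn rose from 17.6 ± 0.805 to 61.0 ± 27.7 CPM (log2 change of 1.86 with SE 0.31, adjusted p = 0.0405, edgeR) and stood at 92.5 ± 32.6 CPM with agonist (log2 change of 0.60 with SE 0.30, adjusted p = 0.432). The cytokine feedback inhibitor Socs3 rose from 22.5 ± 4.73 to 71.3 ± 30.4 CPM (log2 change of 1.74 with SE 0.31, adjusted p = 0.0448), and Csf3r was the third. With agonist 4 rose, Csf1 (adjusted p = 0.0936 with the block), Il6, Socs1 and Il18, and 0 fell in edgeR without the block (4 with it, 4 at an unadjusted p under 0.05 and 2 in DESeq2). With the block 6 rose with agonist. Il6 rose from 0.711 ± 0.162 to 4.37 ± 1.63 CPM (log2 change of 2.61 with SE 0.35, adjusted p = 0.00179), opposite in sign to the difference of Il1b. Of the 15 others tested on the interleukin-4 and interleukin-13 list, which holds Retnla and Alox15, 0 passed edgeR with tumor without the block (4 rose with it, 6 were higher and 1 lower at an unadjusted p under 0.05, and 4 were higher in DESeq2). With agonist the chitinase-like Chil5 fell from 13.4 ± 3.10 to 2.83 ± 0.863 CPM (log2 change of -2.24 with SE 0.29, adjusted p = 0.00140) and Mgl2 also fell, whereas the chemokine Ccl22 rose from 571 ± 164 to 1491 ± 440.3 CPM (log2 change of 1.41 with SE 0.24, adjusted p = 0.00697) and Fcer2a also rose. With the block 5 of these 15 rose and 2 fell with agonist. Of the 20 chemokines beside Cxcl2, 7 rose with agonist (11 with the block). In edgeR 0 fell with or without the block (1 lower at an unadjusted p under 0.05 and 1 in DESeq2).

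**Figure D3:**
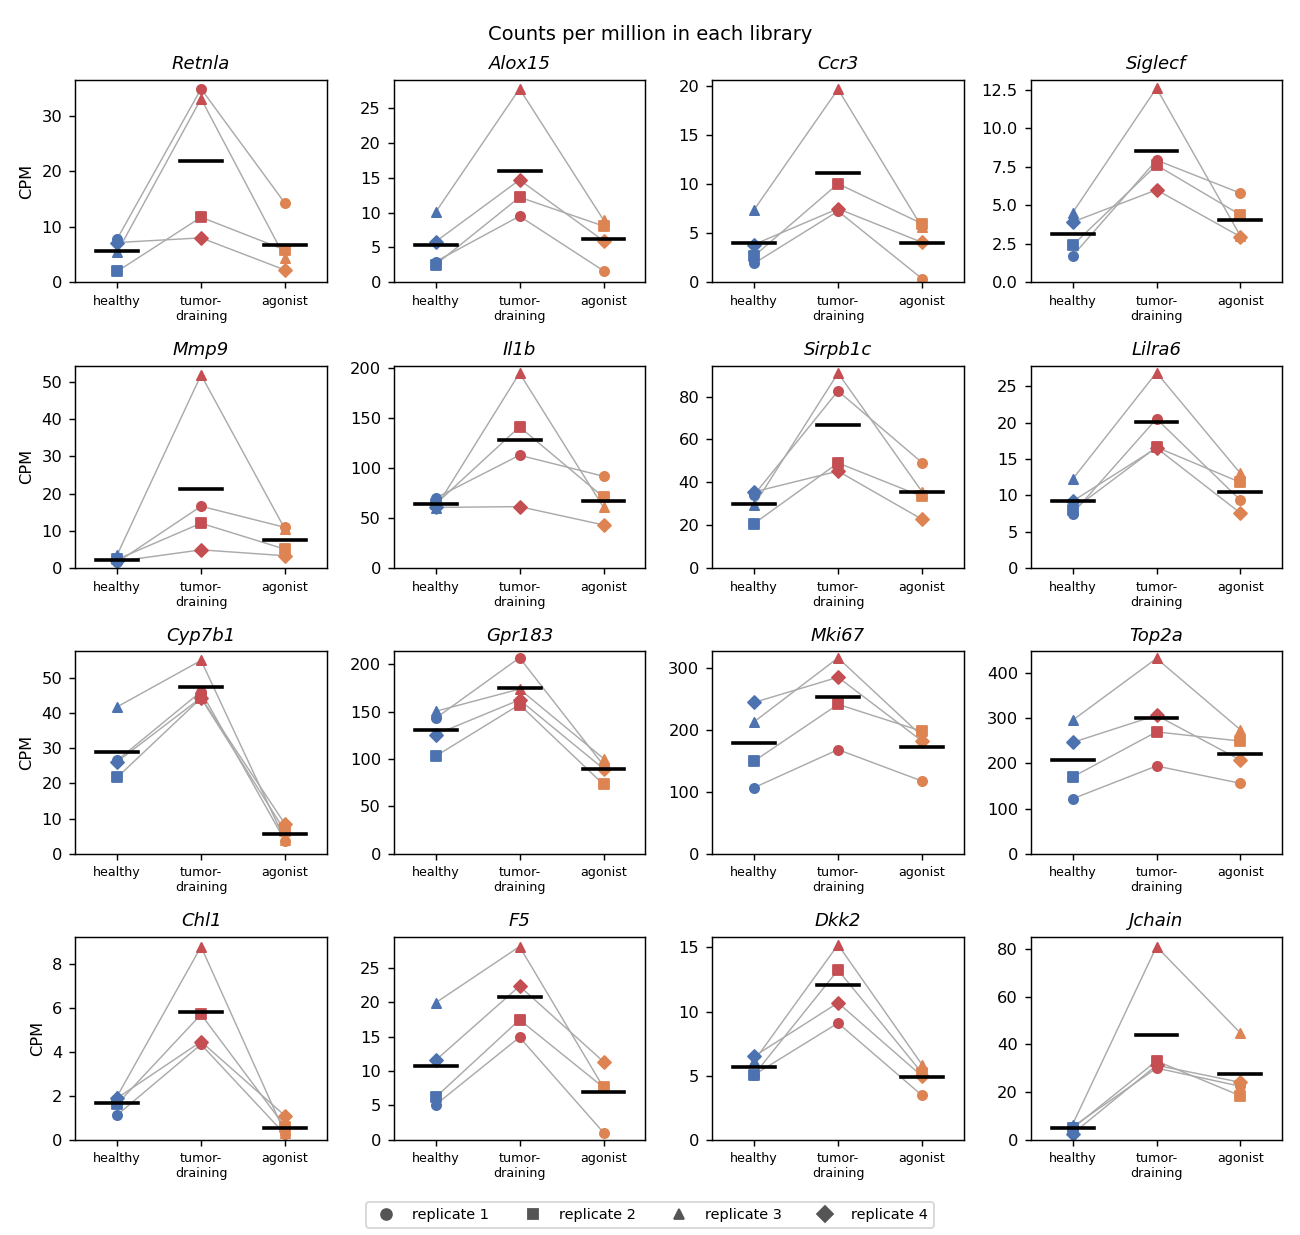
Each panel is a member; points are CPM in single libraries, the marker gives the replicate (title prefix), grey lines join libraries of a prefix and black bars are group means. Tumor-draining replicate 4 sits at the healthy level for Il1b, Cyp7b1 and Gpr183 lie below the healthy range with agonist, and Jchain stays above it.

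Paired immunoreceptors come as activating and inhibitory receptors with similar outer domains, encoded side by side in clusters of near-identical genes, and set the threshold at which myeloid cells respond. The 12 genes of this set, Fgr and Myd88 among them, had a median difference of 0.86 with tumor and -0.62 with agonist. In 10 of them the tumor-draining libraries lay above all healthy ones, where 2.68% of all genes above 0 did. That count follows from the choice of members. Lilra6 (chr7:3908280-3915503, minus strand), an activating paired immunoglobulin-like receptor, stood at 7.49, 7.96, 12.2 and 9.18 CPM in healthy, 20.5, 16.6, 26.9 and 16.5 CPM in tumor-draining and 9.32, 11.8, 12.998 and 7.55 CPM in agonist replicates. The tumor-draining values stood clear of both other groups, which overlapped each other. Its differences were 1.04 ± 0.23 and -0.89 ± 0.28. The neighbouring predicted genes Gm14548 (32.8, 64.2 and 38.0 CPM on average) and Gm15448 (11.04, 23.3 and 16.4 CPM), named here after their values were seen, followed the same order. These 3 are members out of 4 protein-coding genes between chr7:3816781-3915503.

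The stretches upstream of these 3 genes are shown because they make visible how alike these neighbouring copies are. They were taken from RefSeq (GRCm38.p6), all on the minus strand, Lilra6 at chr7:3915612-3915671, Gm14548 at chr7:3898221-3898280 and Gm15448 at chr7:3825778-3825837, and capitals mark GAGGAAGT, a sequence recognised by the myeloid factor PU.1.
Lilra6: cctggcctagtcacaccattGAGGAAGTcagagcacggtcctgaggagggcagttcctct
Gm14548: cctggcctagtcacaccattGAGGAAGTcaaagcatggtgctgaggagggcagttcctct
Gm15448: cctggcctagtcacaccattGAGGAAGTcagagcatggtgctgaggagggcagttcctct
Over these 60 bases, Lilra6 and Gm14548 matched at 57, Lilra6 and Gm15448 at 58, and Gm14548 and Gm15448 at 59. GAGGAAGT, searched on both strands from 250 bases before to 50 bases after the start, occurred in 3 of the 11 promoters of the set that were found (27.3%), which were these 3, and in 3.10% of 16466 promoters of protein-coding genes. A match is a description of the sequence, and 3 copies of 1 sequence are not independent.

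Reads of near-identical genes may be split uncertainly among them by the quantifier, so the single values of such genes are uncertain and families were also summed. The families were chosen after the members were seen. Members made up 3 of 5 paired immunoglobulin-like receptor, 3 of 5 signal-regulatory protein beta, 2 of 11 CD300 and 2 of 6 Clec4a and Clec4b genes. The rule fixed the signs of these members, so the sums are not independent of the choice. The plot of family sums shows that 5 paired immunoglobulin-like receptor genes together averaged 365 ± 36.7, 557 ± 71.2 and 492 ± 36.5 CPM in healthy, tumor-draining and agonist libraries. The summed difference with agonist was -0.17 ± 0.15 and below 0 in 3 of 4 prefixes, so that the family as a whole, which includes the inhibitory receptor Pirb, did not meet the agonist condition that its 3 members met. The 5 genes of the signal-regulatory protein beta locus on chromosome 3 together averaged 113 ± 31.9, 216 ± 61.9 and 123 ± 37.5 CPM, with summed differences of 0.93 ± 0.58 and -0.82 ± 0.18, each of the rule's sign in 4 of 4 prefixes. Within it, the receptor gene Sirpb1c (chr3:15795145-15848528, minus strand) stood at 34.1, 20.7, 29.3 and 35.5 CPM in healthy, 82.6, 49.0, 90.9 and 45.2 CPM in tumor-draining and 49.2, 33.4, 35.7 and 22.7 CPM in agonist replicates. Gm9733 beside it stood at 4.42, 2.79, 4.61 and 6.11, then 17.3, 10.5, 18.5 and 7.96, then 9.93, 6.45, 6.57 and 3.84 CPM. In both, tumor-draining replicates 1 and 3 were about alike and above replicates 2 and 4, and the agonist values overlapped the tumor-draining ones.

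**Figure D4:**
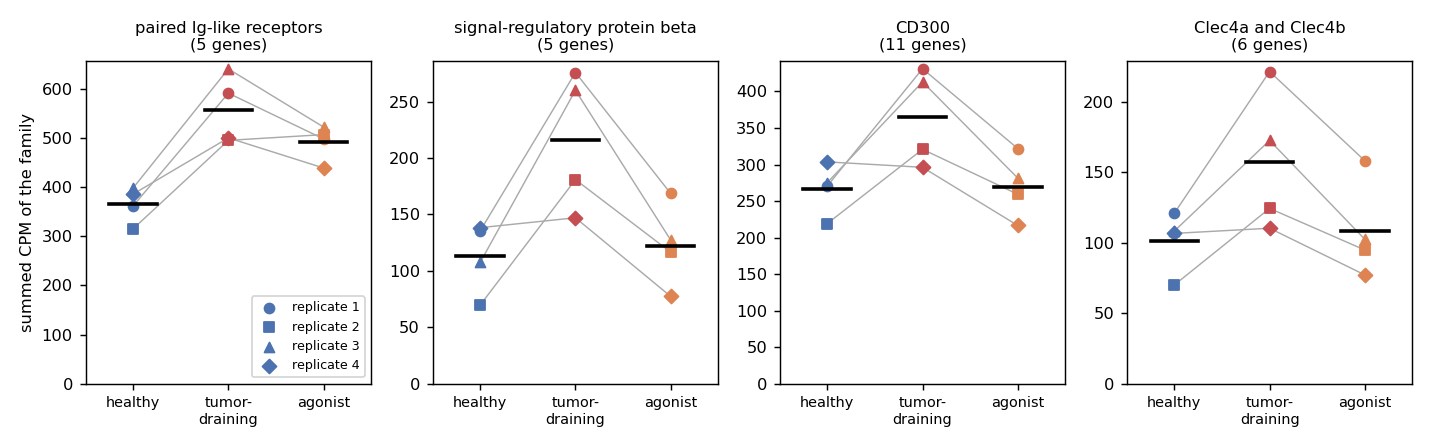
Points are the CPM of 4 receptor families summed over their genes in single libraries, with markers for the replicate, grey lines joining a prefix and black bars for group means. The sums of the signal-regulatory protein beta, CD300 and Clec4a families are lower with agonist in all 4 prefixes, and that of the paired Ig-like receptors in 3 of 4. Each sum includes members, whose signs the rule fixed.

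The 11 CD300 genes, receptors for membrane lipids on myeloid cells, summed to 267 ± 35.1, 365 ± 66.7 and 270 ± 43.9 CPM, with a tumor difference of 0.44 ± 0.32 that was above 0 in 3 of 4 prefixes and an agonist difference of -0.43 ± 0.10. The inhibitory Cd300a averaged 126 ± 21.2, 179.8 ± 34.1 and 121 ± 18.7 CPM, and its neighbour Cd300lb averaged 15.6 ± 3.76, 25.1 ± 3.86 and 14.6 ± 2.38 CPM, both chosen for mention after their values were seen. The 6 genes of the Clec4a and Clec4b lectins summed to 102 ± 21.9, 157 ± 50.5 and 108 ± 35.0 CPM. Of these, Clec4a2, an inhibitory dendritic cell lectin, stood at 28.8, 17.1, 28.3 and 26.8 CPM in healthy, 51.8, 28.0, 38.9 and 27.2 CPM in tumor-draining and 35.2, 19.2, 20.4 and 18.1 CPM in agonist replicates, and Clec4a1 averaged 23.6 ± 5.79, 36.2 ± 11.5 and 23.1 ± 6.72 CPM. Prefix 1 was the highest of each group for Clec4a2. Another lectin of the same cluster that was no member, Clec4a4, rose with tumor from 4.55 ± 0.850 to 17.7 ± 6.28 CPM (log2 change of 1.99 with SE 0.35, adjusted p = 0.0436, edgeR) and stood at 15.01 ± 6.45 CPM with agonist.

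Of the 19 genes of the type 2 dendritic cell list that were not members, 1 rose with tumor (5 with the block) and 0 fell in edgeR (1 with the block, Rbpj, 2 lower at an unadjusted p under 0.05 and 0 in DESeq2). With agonist 5 fell (6 with the block). Cd209a, a lectin of such cells, fell from 179 ± 42.7 to 27.9 ± 13.9 CPM (log2 change of -2.67 with SE 0.34, adjusted p = 0.00144, edgeR), Mgl2 from 121 ± 42.2 to 42.5 ± 13.9 CPM (log2 change of -1.52 with SE 0.28, adjusted p = 0.0102) and Clec10a from 91.7 ± 18.1 to 39.2 ± 5.11 CPM (log2 change of -1.22 with SE 0.21, adjusted p = 0.00697). With tumor these 3 had fold changes below 0 that did not pass the test. Cd7, a surface molecule on the same list and a member, stood at 67.3, 51.2, 118 and 91.7 CPM in healthy, 87.0, 94.0, 124 and 130.2 CPM in tumor-draining and 27.4, 33.9, 62.0 and 42.9 CPM in agonist replicates. Its healthy and tumor-draining values overlapped and every agonist value lay below the tumor-draining ones, with differences of 0.45 ± 0.33 and -1.41 ± 0.29.

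Genes of intracellular signalling were also members. The Src-family kinase Fgr averaged 169 ± 44.2, 285 ± 44.2 and 201 ± 47.4 CPM, and Myd88, the adaptor of Toll-like and interleukin-1 receptors, 69.6 ± 12.9, 113 ± 24.6 and 84.4 ± 11.5 CPM in healthy, tumor-draining and agonist libraries. Nfkb1, which encodes a subunit of the transcription factor NF-kB, stood at 329, 373, 535 and 499 CPM in healthy, 458, 551, 701 and 635 CPM in tumor-draining and 302, 367, 455 and 395 CPM in agonist replicates. Within each prefix the tumor-draining library was the highest, which the rule requires, with differences of 0.44 ± 0.10 and -0.62 ± 0.04. The ranges of healthy and tumor-draining libraries overlapped. The protein kinase Prkcb averaged 185 ± 33.9, 275 ± 61.3 and 204 ± 55.2 CPM. Fgr, Nfkb1 and Prkcb were chosen for mention after their values were seen.

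Dendritic cells and B cells find their place in a lymph node through Gpr183 (EBI2), a receptor for a dihydroxylated oxysterol. Ch25h and Cyp7b1 make that ligand from cholesterol in sequence and Hsd3b7 removes it. Cyp7b1 (chr3:18071950-18243338, minus strand) stood at 26.5, 21.7, 41.8 and 26.1 CPM in healthy, 46.1, 44.2, 55.0 and 44.4 CPM in tumor-draining and 3.69, 6.45, 3.90 and 8.46 CPM in agonist replicates. The 3 groups did not overlap, and the agonist libraries lay far below the healthy ones. Its differences were 0.72 ± 0.25 with tumor and -2.93 ± 0.59 with agonist, and the agonist libraries were -2.20 ± 0.77 from the healthy ones, the lowest such value among the members. Gpr183 (chr14:121952551-121965195, minus strand) stood at 143, 103, 150.3 and 126 CPM in healthy, 207, 157, 174 and 162 CPM in tumor-draining and 93.4, 73.2, 101 and 89.7 CPM in agonist replicates. Here too the 3 groups were separate, with differences of 0.43 ± 0.18 and -0.97 ± 0.18, and -0.54 ± 0.06 between agonist and healthy libraries.

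Of the other 4 genes on the oxysterol list, Cyp46a1 was near 0 and 3 could be tested. In edgeR without the block 0 of the 3 passed in either comparison (with tumor 0 and with agonist 1 at an unadjusted p under 0.05, and 0 in DESeq2). With the block Cyp27a1, a sterol hydroxylase, fell with agonist from 62.8 ± 9.59 to 47.7 ± 4.48 CPM (log2 change of -0.38 with SE 0.13, adjusted p = 0.195 without and 0.0252 with the block). Hsd3b7 averaged 32.4 ± 3.23, 30.4 ± 3.14 and 33.98 ± 3.23 CPM, and Ch25h 0.994 ± 0.667, 1.67 ± 0.777 and 3.01 ± 3.11 CPM. Per transcript length, Gpr183 averaged 69.6, 85.6 and 46.1 TPM and Cyp7b1 11.4, 18.9 and 2.32 TPM.

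The 21 genes of mitosis and chromosome replication had smaller and more even differences, from 0.42 to 0.76 with tumor and from -1.06 to -0.40 with agonist. In 18 of them the agonist level was within 0.2 of the healthy level, which the rule's opposite signs favour for genes near both thresholds. Mki67 (chr7:135689784-135716361, minus strand), whose protein coats mitotic chromosomes and marks dividing cells, stood at 107, 149.5, 213 and 244 CPM in healthy, 168, 241, 316 and 285 CPM in tumor-draining and 117, 198, 189.8 and 182 CPM in agonist replicates. The groups overlapped and prefix 1 was lowest in each. Within each prefix the tumor-draining library was the highest, which the rule requires of every member. The differences of Mki67 were 0.53 ± 0.21 and -0.54 ± 0.19. Top2a (chr11:98992943-99024189, minus strand), the topoisomerase that untangles sister chromatids, stood at 122, 170.1, 296 and 247 CPM in healthy, 194, 269.9, 433 and 307 CPM in tumor-draining and 156, 249.6, 275 and 207 CPM in agonist replicates, with prefix 1 lowest and prefix 3 highest in each group.

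The spindle motor Kif11 (chr19:37376403-37421859, plus strand) averaged 57.0 ± 20.4, 83.3 ± 26.2 and 54.2 ± 12.8 CPM, and the checkpoint kinase Bub1 15.05 ± 5.37, 23.3 ± 6.23 and 16.1 ± 3.52 CPM. Their differences were 0.56 ± 0.21 and -0.59 ± 0.25 for Kif11, and 0.63 ± 0.30 and -0.50 ± 0.19 for Bub1. The set further held the motors Kif4, Kif14, Kif15 and Kif20a, the condensin subunits Ncapg and Ncaph, the kinetochore proteins Knl1 and Nuf2, the cohesin protectors Sgo1 and Sgo2a, the spindle proteins Nusap1, Aspm, Ckap2 and Prc1, the S and G2 phase cyclin Ccna2, and Depdc1a. Cdc7 (chr5:106964322-106984432, plus strand), the kinase that fires replication origins, was set apart with 9.54, 10.96, 13.8 and 13.3 CPM in healthy, 19.7, 24.8, 23.7 and 15.5 CPM in tumor-draining and 9.31, 9.97, 10.9 and 7.62 CPM in agonist replicates. It was the 1 gene of the set whose tumor-draining libraries lay above all healthy and all agonist ones (0.362% of all genes above 0). Its differences were 0.76 ± 0.40 and -1.06 ± 0.13. Apart from Mki67, Kif11, Bub1 and those near the thresholds, the genes of this set were chosen for mention after their values were seen.

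Of the 36 genes of the cell cycle list that were not members, 0 passed the edgeR test in either comparison without the block. At an unadjusted p under 0.05, 12 were higher with tumor and 1 was lower with agonist, and in DESeq2 0 passed in either comparison. With the block 13 rose with tumor, among them the cyclins Ccnb1 (17.7 to 28.4 CPM, adjusted p = 0.0400) and Ccne1 (5.33 to 8.52 CPM, adjusted p = 0.00557), the checkpoint kinase Bub1b (58.4 to 79.4 CPM, adjusted p = 0.00898) and the spindle kinase Aurka (14.3 to 21.2 CPM, adjusted p = 0.00954). With the block 2 fell with agonist, the helicase subunit Mcm6 (147 to 115 CPM, adjusted p = 0.0236) and the cyclin Ccne2 (15.4 to 10.6 CPM, adjusted p = 0.0490). The median log2 fold change of the 36 was 0.42 with tumor, with 35 above 0, and -0.25 with agonist, with 33 below 0, where over all genes tested the medians were -0.02 and 0.02 and the shares 47.9% and 47.9%. Bub1b (log2 change of 0.13 with SE 0.27, adjusted p = 0.943 with agonist) and Gins2 (log2 change of 0.05 with SE 0.21, adjusted p = 0.980) had values above 0 with agonist. Removing the members from the list took out genes chosen for low agonist values, so these 36 lean the other way. Their summed level was 1076 to 1796 CPM in healthy, 1445 to 2197 CPM in tumor-draining and 1317 to 1853 CPM in agonist libraries.

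**Figure D5:**
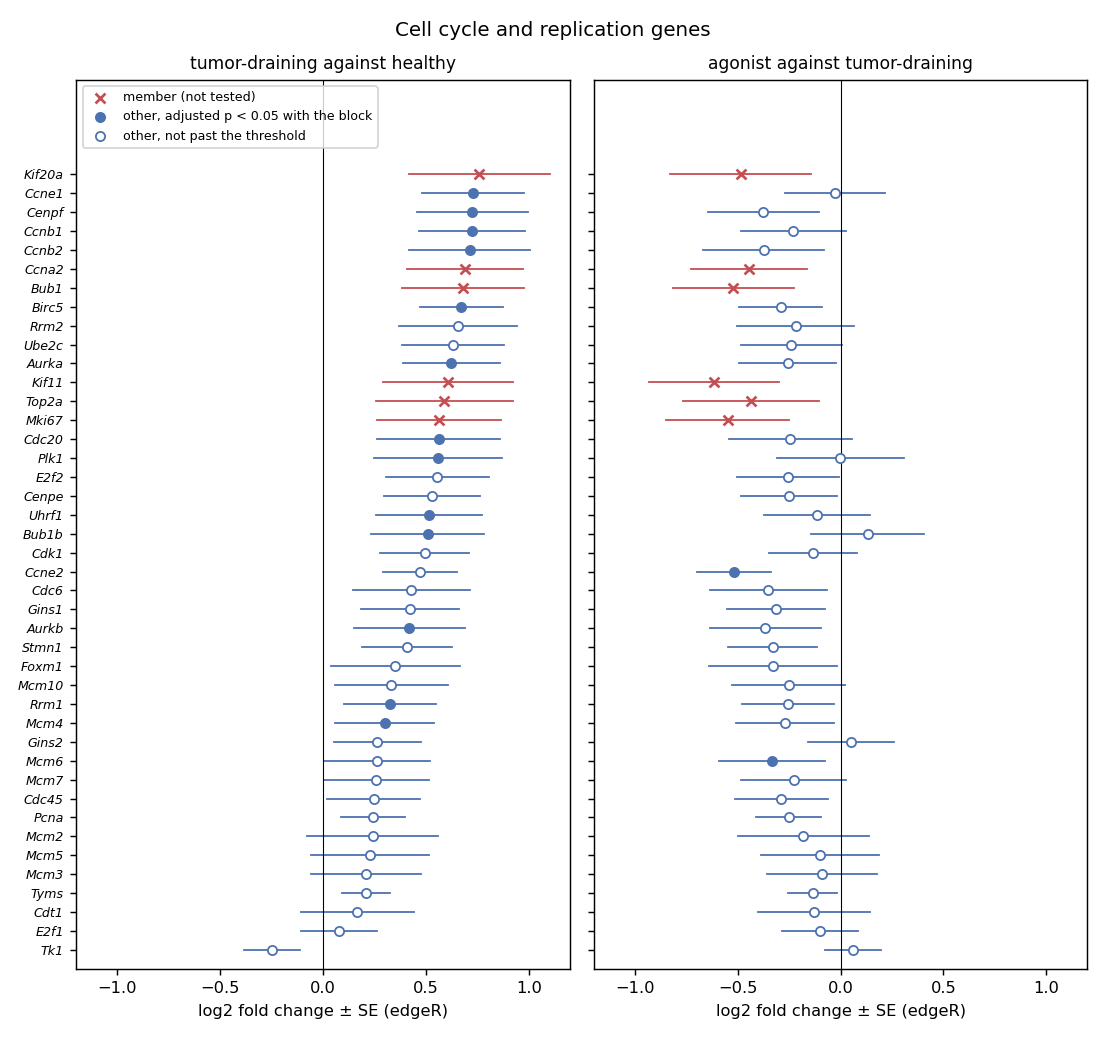
Each row is a gene of the cell cycle and replication list; the horizontal axis is edgeR's log2 fold change without the block, with bars of 1 SE, for tumor-draining against healthy (left) and agonist against tumor-draining (right). Crosses are the 6 members on the list, filled circles are other genes past the threshold when the prefix is a block (13 left, 2 right), and open circles are the rest.

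Promoters of mitotic genes commonly hold the cell cycle genes homology region (CHR), with the letters TTTGAA, near the start and CCAAT boxes upstream of it. The promoters of 5 genes of the set that hold both are shown, from RefSeq (GRCm38.p6), upstream of the start, with CHR and CCAAT matches of either strand in capitals. Kif11 (chr19:37376322-37376381), Depdc1a (chr3:159495373-159495432) and Ncapg (chr5:45669735-45669914) are on the plus strand, and Top2a (chr11:99024190-99024299) and Mki67 (chr7:135716460-135716579) on the minus strand.
Kif11: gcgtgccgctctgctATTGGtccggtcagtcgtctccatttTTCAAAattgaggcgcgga
Depdc1a: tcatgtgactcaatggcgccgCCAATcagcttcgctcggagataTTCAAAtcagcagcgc
Top2a: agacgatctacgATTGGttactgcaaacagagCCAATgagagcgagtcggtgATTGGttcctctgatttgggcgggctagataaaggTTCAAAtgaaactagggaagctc
Mki67: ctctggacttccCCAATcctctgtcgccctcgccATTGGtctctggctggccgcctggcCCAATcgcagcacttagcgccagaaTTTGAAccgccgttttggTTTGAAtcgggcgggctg
Ncapg: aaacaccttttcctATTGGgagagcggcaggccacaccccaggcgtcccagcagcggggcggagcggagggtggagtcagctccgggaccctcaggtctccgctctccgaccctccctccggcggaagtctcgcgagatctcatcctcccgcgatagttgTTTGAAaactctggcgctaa
In Kif11 the CHR match began 19 bases before the start, in Depdc1a 16, in Top2a 23 and in Ncapg 30, whereas the 2 matches of Mki67 began 116 and 98 bases before it. Top2a and Mki67 each held 3 CCAAT matches, and the matches of the 2 motifs did not overlap. In the window from 250 bases before to 50 bases after the start, TTTGAA was found on either strand in 13 of the 19 promoters of the set that matched a RefSeq entry (68.4%) and in 2567 of 16466 promoters of protein-coding genes (15.6%). CCAAT was found in 13 of 19 (68.4%) and in 38.7% of all, and both in 10 of 19 (52.6%) and in 6.38% of all. The E2F sequences TTTGGCGC or TTTCCCGC were found in 2 of 19 (10.5%) and in 2.18% of all. Over the 90 members with a promoter, TTTGAA was found in 28 (31.1%). Among the 13 granulocyte and inflammatory genes with a promoter, TTGCNNAA, a sequence of the C/EBP factors, was found in 4 (30.8%), against 9.97% of all. Over the 90 members GAGGAAGT was found in 8 (8.89%), the GATA sequence AGATAA in 4 (4.44%, against 9.66% of all) and a short NF-kB motif in 58 (64.4%, against 57.8% of all). These counts describe the sequences, and none says whether a factor was bound.

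Chl1 (chr6:103510586-103750211, plus strand), a neural cell adhesion molecule, ranked after Retnla by the smaller of its 2 differences. It stood at 1.12, 1.62, 1.97 and 1.89 CPM in healthy, 4.34, 5.71, 8.79 and 4.47 CPM in tumor-draining and 0.241, 0.591, 0.288 and 1.09 CPM in agonist replicates. The 3 groups were separate, with the agonist libraries lowest, and the differences were 1.33 ± 0.33 and -2.12 ± 0.63. The set called neural adhesion and guidance held 6 further members at several levels. Its name does not cover Ddr1 or Scn3a, which were placed there loosely. Of the 6, all but Dscam were chosen for mention after their values were seen. The collagen receptor kinase Ddr1 stood at 50.3, 47.2, 88.7 and 88.0 CPM in healthy, 105, 97.4, 141 and 126 CPM in tumor-draining and 44.5, 43.9, 77.1 and 49.7 CPM in agonist replicates, and the catenin Ctnnd2 at 17.5, 16.5, 31.0 and 30.2, then 34.8, 38.8, 53.1 and 35.7, then 13.2, 17.2, 21.6 and 14.0 CPM. For both the tumor-draining libraries lay above every other library, and the agonist difference (-1.14 ± 0.20 and -1.25 ± 0.09) was larger than the tumor difference (0.81 ± 0.27 and 0.78 ± 0.41). The ephrin receptor Ephb2 averaged 2.73, 4.31 and 2.37 CPM and the ephrin Efnb3 0.312, 0.971 and 0.383 CPM. The sodium channel Scn3a averaged 18.0 ± 1.21, 38.4 ± 9.04 and 22.0 ± 3.90 CPM, and the adhesion molecule Dscam 33.5 ± 5.26, 53.5 ± 9.72 and 40.4 ± 8.26 CPM.

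Among secreted proteins, coagulation factor F5 (chr1:164151838-164220277, plus strand) stood at 5.09, 6.18, 19.9 and 11.6 CPM in healthy, 14.9, 17.5, 28.1 and 22.4 CPM in tumor-draining and 1.04, 7.62, 7.61 and 11.4 CPM in agonist replicates. Agonist replicate 1 was the lowest of the 12 libraries, as for Ccr3 and Alox15, and healthy replicate 3 reached into the tumor-draining range. The differences of F5 were 1.03 ± 0.43 and -1.69 ± 0.93. The Wnt antagonist Dkk2 (chr3:132085292-132180304, plus strand) stood at 5.06, 5.07, 6.13 and 6.50 CPM in healthy, 9.10, 13.2, 15.2 and 10.7 CPM in tumor-draining and 3.46, 5.21, 5.86 and 4.96 CPM in agonist replicates. Its tumor-draining libraries stood clear of the other 8, which overlapped, with differences of 0.95 ± 0.30 and -1.15 ± 0.12.

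Jchain (chr5:88519809-88527891, minus strand), the chain that joins polymeric IgM and IgA of plasma cells, had the largest tumor difference of the members. It stood at 5.30, 4.79, 6.36 and 2.45 CPM in healthy, 30.03, 33.0, 80.9 and 31.2 CPM in tumor-draining and 22.4, 18.4, 44.7 and 24.0 CPM in agonist replicates. Tumor-draining and agonist replicate 3 were high, all agonist libraries lay above all healthy ones, and the agonist mean was 2.28 ± 0.55 above the healthy mean. Of the 9 other plasma cell genes, 8 could be tested: Mzb1, a chaperone of antibody secretion, rose with tumor from 4.82 ± 0.498 to 13.6 ± 3.14 CPM (log2 change of 1.56 with SE 0.26, adjusted p = 0.0405, edgeR), and 0 passed the test with agonist (2 lower at an unadjusted p under 0.05 and 0 in DESeq2). With the block 3 rose with tumor and 2 fell with agonist, Tnfrsf13b from 54.1 to 31.7 CPM (adjusted p = 9.49e-05) and Irf4 from 160.5 to 117 CPM (adjusted p = 0.0202). The receptor Tnfrsf17 averaged at most 0.0978 CPM in any group, and the 9 genes summed to 337 to 442 CPM in healthy, 372 to 509 CPM in tumor-draining and 304 to 425 CPM in agonist libraries. The part of plasma cells in the Jchain values was not tested.

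Transport and lipid genes made up 12 members. The large amino acid transporter Slc7a5 stood at 20.8, 30.1, 35.2 and 40.6 CPM in healthy, 57.1, 47.0, 76.9 and 47.6 CPM in tumor-draining and 39.1, 30.9, 50.9 and 33.9 CPM in agonist replicates, with tumor-draining values above all healthy ones. Its agonist difference was -0.55 ± 0.05, close to even across prefixes. The sodium pump subunit Atp1b1 averaged 31.1 ± 11.5, 40.2 ± 6.47 and 18.0 ± 3.44 CPM, and leukotriene A4 hydrolase, Lta4h, 107 ± 13.8, 145 ± 28.3 and 99.1 ± 12.9 CPM. The fatty acid carrier Fabp5 stood at 154, 128, 135 and 140.4 CPM in healthy, 413, 275, 352 and 220.1 CPM in tumor-draining and 255, 219, 248 and 173 CPM in agonist replicates, so that the agonist level lay between the other groups without touching the healthy range, and overlapped the tumor-draining one. The small GTPase Rab44, of granule-bearing leukocytes, stood at 0.825, 0.552, 1.27 and 1.55, then 3.14, 2.57, 5.50 and 2.26, then 0.891, 1.58, 0.995 and 1.24 CPM, and the calcium-binding S100a4, the member with the highest level per length (1795 TPM in tumor-draining libraries), averaged 326 ± 109, 518 ± 186 and 371 ± 134 CPM. Atp1b1, Lta4h, Fabp5 and S100a4 were chosen for mention after their values were seen.

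The 6 G protein-coupled and purinergic receptors differed by 0.44 to 1.19 with tumor and by -0.71 to -0.44 with agonist. The serotonin receptor Htr7 stood at 10.1, 15.2, 18.2 and 14.9 CPM in healthy, 32.2, 30.5, 52.7 and 25.3 CPM in tumor-draining and 19.2, 26.8, 24.0 and 17.5 CPM in agonist replicates, with every tumor-draining library above the healthy ones. Gpr35 averaged 96.4 ± 17.6, 143 ± 28.5 and 96.0 ± 16.02 CPM with its tumor-draining libraries above all 8 others, and the ATP-gated channel P2rx1 averaged 1.46 ± 0.957, 2.25 ± 0.633 and 1.02 ± 0.530 CPM. The 6 signalling genes, with Nfkb1 and Prkcb the most abundant, differed by 0.44 to 0.69 and by -0.68 to -0.44. All 6 were within 0.2 of the healthy level with agonist, which the rule's opposite signs favour. The 27 remaining members without a shared role differed by 0.42 to 1.79 with tumor and by -1.41 to -0.40 with agonist. In 11 of them the tumor-draining libraries lay above all others, where 0.362% of all genes above 0 did. That count follows from the choice of members. Among these 27 were the interferon-induced membrane protein Ifitm2 (52.7, 96.4 and 67.9 CPM on average) and the membrane raft protein Flot1 (32.2, 59.99 and 37.9 CPM). The genes of this paragraph were chosen for mention after their values were seen.

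The agonist level relative to the healthy level is the sum of the rule's 2 differences, which have opposite signs, and shares all its libraries. For members near both thresholds it lies near 0 by choice. It ran from -2.20 to 2.28 with a median of 0.07. In 65 of the 115 members it was within 0.2 of the healthy level. The share over all genes was not counted, and nothing is read from this count. Over all 115, it was below the healthy level in 47 and above it in 68. The agonist libraries lay below all healthy libraries in 3 members (Chl1, Cyp7b1 and Gpr183), where 7.23% of all genes above 0 did. They lay above all healthy libraries in 7 (Slpi, Tmem132c, Slc9a2, Jchain, Gm5150, Fabp5 and Gcnt2), where 7.23% of all genes did. The median log2 fold change of agonist against healthy was 0.13 in the edgeR fit and 0.18 with the block, given as a description with no test.

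A total of 10 groups of members within 500000 bases of each other were found. Besides the receptor clusters, these included Hfm1 and Cdc7, adjacent on chromosome 5 (chr5:106840192-106984432), F5 and Atp1b1 on chromosome 1, and Ddr1 and Flot1 on chromosome 17 with 1 other protein-coding gene, Ier3, between them. In 111 of the 115 members the leading transcript was annotated as protein coding. The others were Cxcl2 (retained intron), and Htr7, Kif14 and Gm20683 (nonsense-mediated decay). In 99 members the leading transcript met both signs of the rule in all 4 prefixes by itself. Its share of the gene's counts differed by under 10 points among the groups in 96. Siglecf was among those with a larger difference.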

How the data were processed

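RNA of CD11c cells was sequenced in 12 libraries, 4 per group. The authors deposited estimated counts per transcript, not normalized, and the submitters' processing notes name Salmon and the build mm10. They also deposited TPM, the same estimates divided by transcript length and scaled to a common sum per library. The sources used here give no Salmon version, annotation, strand setting or read filter.

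Of 132374 transcripts, 131974 were matched to GENCODE M21 and summed to 52355 genes, of which 21872 were protein coding. The other 400 held under 0.15% of the counts of any library. CPM used the column total, and the rule used log2(CPM + 1). The members, role sets and gene lists were chosen with earlier results of these data known. Named members are the first 15 by the smaller of the 2 mean differences, up to 3 per gene list, and those next to the thresholds. Any other member given with its values was chosen after they were seen and is said to be so. Members named without values are not always marked.

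For tests, sums were rounded to whole numbers and all 12 libraries were fitted with edgeR 4.0.16 in R 4.3.3 (TMM scaling, filterByExpr with a minimum count of 10, 23729 genes, quasi-likelihood test, Benjamini-Hochberg adjustment over all genes tested). SE is that of the log2 fold change. The procedure without the block was also run on simulated counts with a smaller spread than these libraries and no prefix effect. The fitted coefficient of variation here was 33.9% without and 20.7% with the block. That run therefore does not show how the test performs on these data. The title prefix is a label shared by 1 library of each group. Deviations from the group means correlated at 0.24 to 0.67 between libraries of the same prefix (12 pairs) and at -0.61 to 0.56 between others (36 pairs), so the prefix pairs the libraries. Values with the prefix as a block are given for many of the calls that it changes, but not for all. Alternatives were other pseudocounts, TMM scaling, TPM, another threshold, filters, DESeq2 1.42.0, the block, and leaving out libraries or prefixes. Python 3.11.15 with pandas 2.3.3 did the rest. Promoter sequences came from RefSeq (GRCm38.p6), matched by symbol for 90 of the 115 members.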

Additional observations from a re-analysis of the deposited data

Results flagged for a closer look

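Among 117 groups of 4 libraries, 3 held a library far from the other 3, and chance flags about 1 in 20 groups. Slpi, an inhibitor of neutrophil proteases, was at 39.9 CPM in tumor-draining replicate 3 and at 10.5 to 12.9 CPM in the other 3 tumor-draining libraries. Jchain, the joining chain of polymeric antibodies, was at 80.9 CPM in the same library and at 30.03 to 33.0 CPM in the other 3. Clec4a2, an inhibitory lectin, was at 35.2 CPM in agonist replicate 1 and at 18.1 to 20.4 CPM in the other 3 agonist libraries, and prefix 1 was also the highest for it in the other groups.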

How the results depend on the processing

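The member count of 115 became 67 with a threshold of 0.5. It was 132 and 94 with pseudocounts of 0.5 and 2 CPM, 135 with TMM scaling (107 of the 115 among them), 98 with TPM (72 of the 115) and 109 among genes of at least 1 CPM. Leaving out 1 prefix gave 107 to 177, the highest without prefix 4. With the title prefix as a block, which pairs the libraries, 1495 genes passed for tumor-draining against healthy and 3161 for agonist against tumor-draining, where 47 and 635 did without it. The median agonist against healthy fold change of the members was 0.18 with the block and 0.13 without. DESeq2 gave 368 and 1186 genes, and 75 passed with tumor when no filter was used. Leaving out 1 library was done only without the block, so these counts ignore the pairing, and gave 0 to 101 genes with tumor. The count was 0 without healthy replicate 1, 3 or 4 (1301, 2251 and 2063 at an unadjusted p under 0.05 in edgeR). It was 1 without healthy replicate 2, 3 without tumor-draining replicate 3 and 101 without tumor-draining replicate 4. With agonist, leaving out 1 library gave 323 to 547 genes, the lowest without tumor-draining replicate 2. Over 70 named differences, the other pseudocounts, TMM scaling and TPM gave 280 values, of which 269 moved by less than 1 SD and 0 changed sign; 10 of the 11 that moved did so with TPM, such as Chl1 with tumor (0.78) and agonist (-0.95) and Trabd2b with tumor (0.13). The cause was not tested. Leaving out 1 prefix could not change the sign of any named difference, since the rule fixed it in all 4, and is no sign of stability.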

Other observations

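The mirror rule, lower with tumor and higher with agonist, chose 106 genes. Of the 24 type I interferon response genes, none of which was a member, 19 rose with tumor with the title prefix as a block (1 without it) and 13 rose with agonist with it (8 without it), so that they did not turn back with the agonist as the members did by choice. Of the 13 MHC class II pathway genes, also without a member, 2 fell with agonist without the block and 10 with it. Of the 24 sterol synthesis genes, 7 fell with agonist without the block and 15 with it, with a median log2 fold change of -0.44.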
